A study of Mus musculus with 6 samples.

Results

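The genes described here encode ligands and receptors of the platelet-derived growth factor (PDGF) and fibroblast growth factor (FGF) families. They are the PDGF chains Pdgfa, Pdgfb and Pdgfc, the PDGF receptors Pdgfra and Pdgfrb, the FGF ligands Fgf2 and Fgf7, and the FGF receptors Fgfr1, Fgfr2 and Fgfrl1. These 10 genes were taken by symbol from the 18193 genes that had a probe set with 1 gene symbol, and each was read from its probe set with the highest mean log2 signal. They were compared between E0771-HML2 and E0771 parental cells. The E0771 line comes from a mammary tumour of a C57BL/6 mouse. HML2 cells are a second-generation population recovered from the lungs of syngeneic C57BL/6 mice after injection of the line into the mammary fat pad, and parental cells were never selected in this way. Both were grown in DMEM with 10% fetal bovine serum for 3 days, and each group had 3 cultures on 1 Affymetrix Mouse Genome 430 2.0 array each. The labels call the cultures biological replicates and do not give the animal behind each HML2 culture, so p-values cover only the scatter of cultures, which may be technical.

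PDGF and FGF ligands are secreted proteins that bring receptor tyrosine kinases together in pairs on the cell surface. The paired receptors phosphorylate each other and start the RAS-MAPK and PI3K cascades. Most FGF ligands need heparan sulfate chains to hold them on their receptors. In the mammary gland, as in most organs, PDGF receptors are best known from stromal cells such as fibroblasts and pericytes. FGF7 is made by stromal cells and acts on epithelial cells that carry a splice form of FGFR2, while FGFR1 is used by many cell types.

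The deposited values are MAS5 signals, linear brightness values scaled to a trimmed mean of 500 on all 6 arrays, and precision is limited by the number of arrays. The 3 bacterial Trpn control probe sets, which have no mouse target, read 1.97 to 36.2 and gauge the background. They are the bacterial controls meant below, and no other control probe set was used for this. The ratio of 3' to 5' control signals, a sign of RNA integrity, was 0.770 to 0.816 in HML2 and 0.799 to 0.803 in parental cells for Gapdh. For beta-actin it was 1.36 to 1.39 in HML2 and 1.41 to 1.53 in parental cells, without overlap (exact two-sided permutation p = 0.1, the smallest that 3 against 3 allows), and its part in the results below was not tested. Differences below are HML2 minus parental on the log2(signal + 50) scale, which understates the change of dim genes, and a gene was called at a Benjamini-Hochberg adjusted p below 0.05 in limma.

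The comparison asks how the lung-selected cells differ in these genes from the cells they came from. The receptor messages Pdgfra, Fgfr1 and Fgfrl1 and the ligand message Fgf7 were lower in HML2 cells, and the ligand message Pdgfa was not called in either direction. Of the 10 genes, 6 had a mean signal of at least 100 and were tested, and each of the 6 also had a mean above 100 within both groups. Pdgfra, Fgf7, Fgfr1 and Fgfrl1, 4 of the 6, were called lower and 0 were called higher, while 14.9% of all 9361 genes tested were called lower and 12.3% higher. The HML2 arrays lay wholly below the parental arrays for these same 4 genes and wholly above them for 0, against 23.8% and 20.6% of all genes tested. The Fgfr1 call was the least stable and was lost in 7 of 16 alternative settings or sets of arrays. Pdgfrb, with a difference of -1.18, lay just outside the threshold and Pdgfa far from it. The median difference of the 6 was -1.14, against -0.02 over all genes tested. Pdgfb, Pdgfc, Fgf2 and Fgfr2 were too dim to be tested and are described by their signals.

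**Figure D1:**
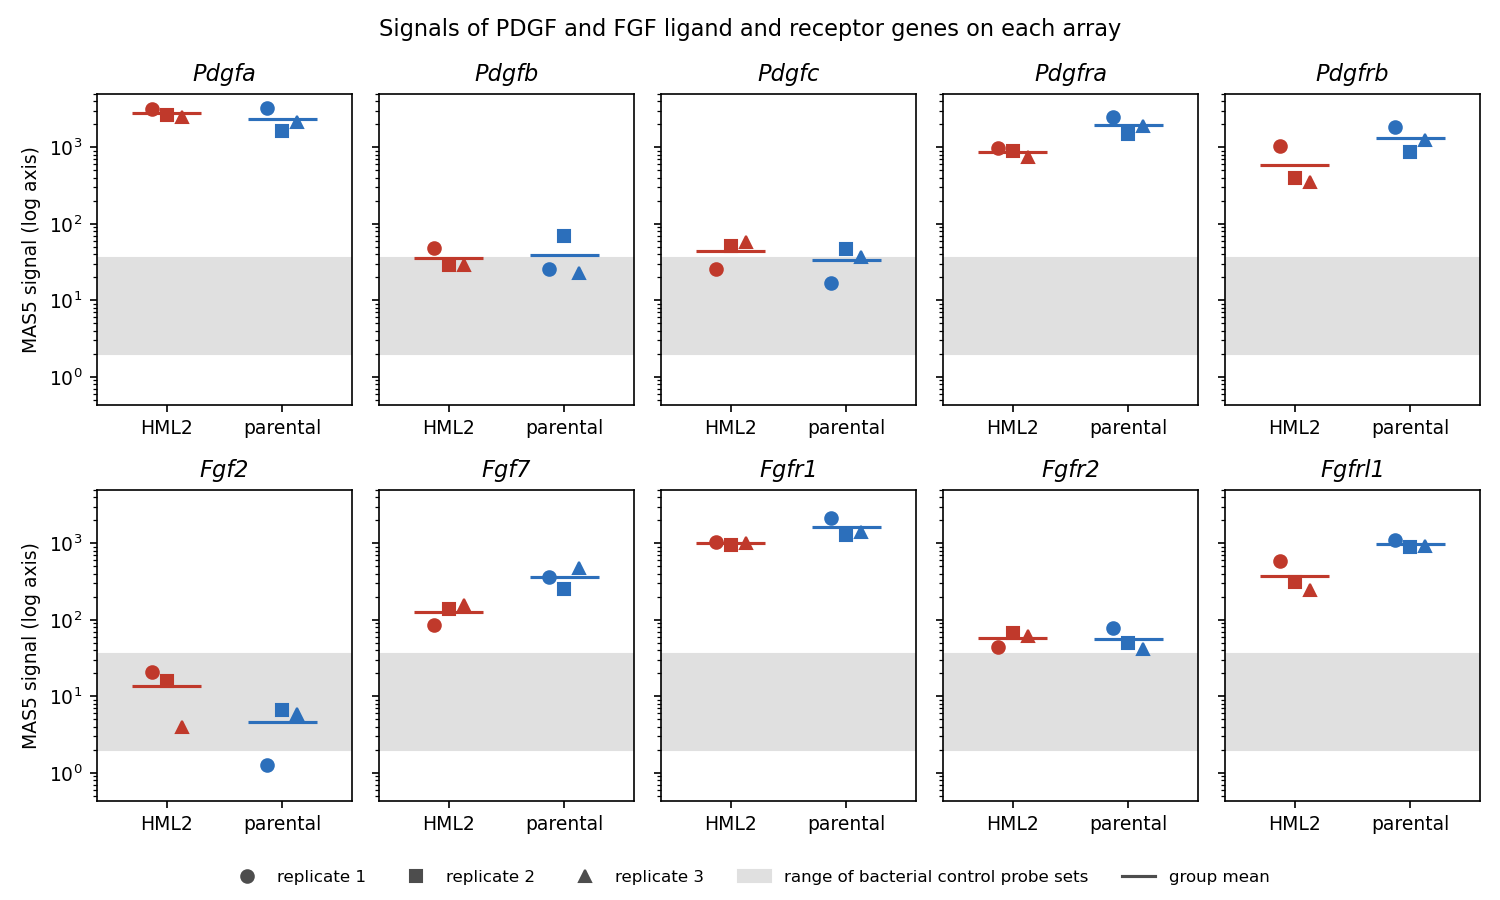
MAS5 signals (log axis) of the 10 ligand and receptor genes in HML2 (red, left) and parental cells (blue, right), with 1 symbol per array, a bar at the group mean and the bacterial control range of 1.97 to 36.2 in grey. HML2 arrays lie below all parental arrays for Pdgfra, Fgf7, Fgfr1 and Fgfrl1, and Pdgfb, Pdgfc, Fgf2 and Fgfr2 lie in or near the grey band.

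Promoter sequences are shown for the genes that fell and had an entry in the RefSeq promoter table (GRCm38.p6), and for Pdgfa, which was not called. Fgfr1, also called lower, had no entry. Each stretch runs 5' to 3' along the gene from 250 bases before a transcript start to 50 bases after it, so it holds upstream sequence and the first transcribed bases. Capitals mark the motif GGGCGG, read on both strands. The windows lie at chr5:75152001-75152300 (+ strand) for Pdgfra, chr2:126034408-126034707 (+) for Fgf7, chr5:108693979-108694278 (+) for Fgfrl1 and chr5:138994895-138995194 (- strand) for Pdgfa.
Pdgfra: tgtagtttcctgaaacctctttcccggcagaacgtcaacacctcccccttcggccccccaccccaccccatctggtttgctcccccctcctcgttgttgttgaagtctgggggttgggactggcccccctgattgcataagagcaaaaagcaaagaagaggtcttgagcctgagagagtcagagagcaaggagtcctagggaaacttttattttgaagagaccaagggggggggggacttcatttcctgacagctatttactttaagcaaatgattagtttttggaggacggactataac
Fgf7: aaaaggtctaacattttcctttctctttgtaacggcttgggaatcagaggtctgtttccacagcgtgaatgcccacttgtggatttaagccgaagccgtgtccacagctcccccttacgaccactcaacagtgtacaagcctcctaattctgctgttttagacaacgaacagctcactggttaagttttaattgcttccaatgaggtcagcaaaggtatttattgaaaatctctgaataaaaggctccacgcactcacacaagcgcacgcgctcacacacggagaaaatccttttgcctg
Fgfrl1: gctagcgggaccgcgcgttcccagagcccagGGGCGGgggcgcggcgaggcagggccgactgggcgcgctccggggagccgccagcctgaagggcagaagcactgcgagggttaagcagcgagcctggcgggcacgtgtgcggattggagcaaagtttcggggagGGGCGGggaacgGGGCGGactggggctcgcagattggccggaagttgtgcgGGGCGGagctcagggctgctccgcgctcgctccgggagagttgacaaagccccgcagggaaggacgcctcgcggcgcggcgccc
Pdgfa: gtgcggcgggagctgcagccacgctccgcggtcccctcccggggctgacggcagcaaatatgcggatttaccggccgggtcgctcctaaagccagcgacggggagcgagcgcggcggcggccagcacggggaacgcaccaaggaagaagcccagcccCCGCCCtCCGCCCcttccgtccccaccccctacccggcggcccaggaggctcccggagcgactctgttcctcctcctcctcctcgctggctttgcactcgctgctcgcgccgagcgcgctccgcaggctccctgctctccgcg
The promoters of the 3 lowered genes shown differed in base composition, with 51.0% G and C bases for Pdgfra, 45.7% for Fgf7 and 73.7% for Fgfrl1. The median of 32851 promoters was 52.7%. Pdgfa had 73.3%. GGGCGG, the core of a GC box, occurred 4 times at Fgfrl1 and 2 times at Pdgfa and was not found in the windows of Pdgfra and Fgf7, and 35.7% of all promoters hold it. TGANTCA, the core of an AP-1 site, was found in none of the 4 windows (7.81% of all promoters hold it), and neither was TATAAA (13.6%). The windows of Pdgfra, Fgf7 and Fgfrl1 had no searched motif in common, and that of Fgfr1 could not be searched. The GC-rich Fgfrl1 and Pdgfa windows belonged to a gene that fell and to one that was not called. A role of these motifs was not tested. A second Pdgfa start in the table, at chr5:138994232-138994531, had 67.0% G and C bases and 1 GGGCGG.

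Pdgfra encodes the PDGF receptor that binds the A, B and C chains. It had signals of 975, 896 and 747 in HML2 replicates 1 to 3, against 2500.3, 1467 and 1896 in parental replicates 1 to 3. Every HML2 array lay below every parental array. The group means were 873 ± 116 in HML2 and 1954 ± 519 in parental cells (SD, n = 3 each), a ratio of 0.447. The log2 difference was -1.09 ± 0.20 (SE; limma adjusted p = 0.0052) with a 95% interval of -1.55 to -0.64. Fewer cells expressing a gene and less RNA per cell cannot be told apart in these bulk cultures, for Pdgfra and for every gene below.

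Pdgfrb encodes the receptor that prefers the B chain. It had signals of 1025, 393 and 357 in HML2 replicates 1 to 3, against 1857, 869.6 and 1243 in parental replicates 1 to 3. HML2 replicate 1 reached into the parental range, so the groups overlapped. The means were 592 ± 376 in HML2 and 1323 ± 498 in parental cells (SD, n = 3 each), a ratio of 0.447. The log2 difference of -1.18 ± 0.39 (SE) had a limma adjusted p of 0.053 and was not called, with a 95% interval of -2.07 to -0.30. It was called with the replicate number as a block (adjusted p = 0.0020), with array weights and without HML2 replicate 1, where the difference was -1.63 (adjusted p = 0.0014). Over all alternatives the adjusted p of Pdgfrb ran between 3.0e-05 and 0.17.

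Pdgfa encodes the A chain, whose dimer binds PDGFRA but not PDGFRB. It had signals of 3146, 2619 and 2517 in HML2 and 3289, 1647 and 2122 in parental replicates 1 to 3. The lowest HML2 array lay above 2 of the parental arrays, and parental replicate 1 was the brightest of all. The means were 2761 ± 337 in HML2 and 2353 ± 845 in parental cells (SD, n = 3 each). The log2 difference was 0.28 ± 0.23 (SE; limma adjusted p = 0.41), and its 95% interval of -0.25 to 0.80 covers both a small decrease and an increase. Without parental replicate 1 the difference was 0.54 (adjusted p = 0.067), and without parental replicate 2 it was 0.055 (adjusted p = 0.88). The interval of Pdgfa does not reach down to that of Pdgfra, the receptor gene of its product.

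The other PDGF chains stayed near the background. Pdgfb, whose product binds both receptors, had signals of 48.5, 29.2 and 28.8 in HML2 and 25.4, 69.8 and 23.0 in parental cells. Pdgfc, whose product needs a protease to release its active domain, had 25.3, 50.6 and 57.6 in HML2 and 17.0, 46.6 and 37.0 in parental cells. Pdgfb exceeded the brightest bacterial control on 1 HML2 and 1 parental array and Pdgfc on 2 and 2. The groups overlapped for both genes. Without the signal filter their log2 differences were -0.034 for Pdgfb and 0.18 for Pdgfc, with limma adjusted p-values of 0.95 and 0.69, where 6.82% of genes were called lower and 5.07% higher.

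Fgf7, also known as keratinocyte growth factor, was bright enough to be tested. It had signals of 85.8, 139 and 158 in HML2 replicates 1 to 3, against 366, 253 and 470.5 in parental replicates 1 to 3. The groups did not overlap, and HML2 replicate 1 was the lowest array. The means were 128 ± 37.4 in HML2 and 363 ± 109 in parental cells (SD, n = 3 each), a ratio of 0.352. The log2 difference was -1.21 ± 0.25 (SE; limma adjusted p = 0.0088), with a 95% interval of -1.77 to -0.64.

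Fgf2, the basic FGF, had signals of 21.0, 15.97 and 3.98 in HML2 and 1.26, 6.70 and 5.90 in parental cells. No array exceeded the brightest bacterial control, so no level of Fgf2 can be told from background here. Fgfr2, which encodes the receptor for FGF7 in its epithelial splice form, had 43.5, 67.7 and 62.2 in HML2 and 77.9, 49.3 and 41.9 in parental cells. All 6 arrays lay above the brightest bacterial control of 36.2, but by little, and the groups overlapped. Without the signal filter the log2 difference of Fgfr2 was 0.027 (limma adjusted p = 0.96, 95% interval -0.45 to 0.50).

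Fgfr1 encodes an FGF receptor kinase found in mesenchymal and many other cells. It had signals of 1044, 936 and 1007 in HML2 replicates 1 to 3, against 2159, 1264 and 1418 in parental replicates 1 to 3. The groups did not overlap, and the HML2 arrays lay close together while parental replicate 1 stood above its group. The means were 996 ± 55.1 in HML2 and 1614 ± 479 in parental cells (SD, n = 3 each), a ratio of 0.617. The log2 difference was -0.63 ± 0.20 (SE; limma adjusted p = 0.042), with a 95% interval of -1.08 to -0.19. The call was lost in 7 of 16 alternatives, among them those without parental replicate 1 (-0.41, adjusted p = 0.098) or 3 (adjusted p = 0.088) and without HML2 replicate 2 (0.11) or 3 (0.10), and the adjusted p ran between 0.0027 and 0.11.

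Fgfrl1 encodes a membrane protein that binds FGF ligands but lacks the tyrosine kinase domain of the other receptors. It had signals of 582, 311 and 243 in HML2 replicates 1 to 3, against 1107, 896 and 922 in parental replicates 1 to 3. All HML2 arrays lay below all parental arrays, and HML2 replicate 1 was the nearest to them. The means were 379 ± 179 in HML2 and 975 ± 115 in parental cells (SD, n = 3 each), a ratio of 0.389. The log2 difference of -1.33 ± 0.27 (SE; limma adjusted p = 0.0075) was the largest of the 6 in size on this scale with all arrays in the fit. It had a 95% interval of -1.94 to -0.72, and the intervals of Pdgfra, Pdgfrb, Fgf7 and Fgfrl1 overlap one another. Without HML2 replicate 1 it was -1.65.

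**Figure D2:**
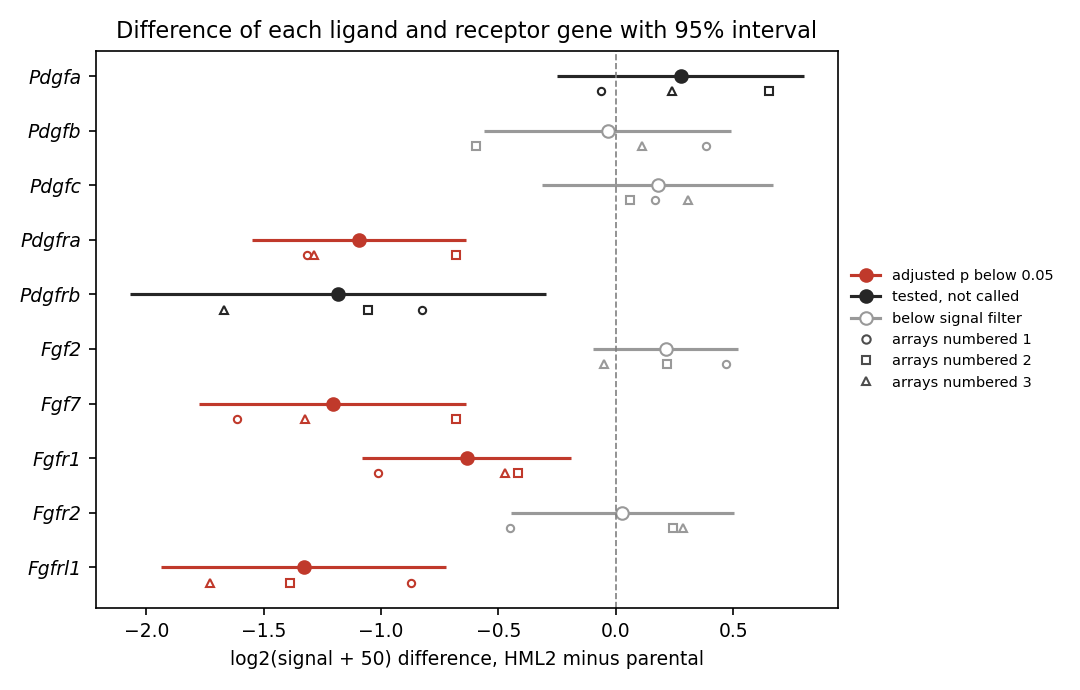
Log2(signal + 50) difference of each gene, HML2 minus parental, with its 95% interval (large symbols and lines) and, below each, the differences between arrays of the same replicate number. The 4 called genes (red) and Pdgfrb (black) have intervals below 0, and open grey symbols are genes below the signal filter, with intervals from the fit without it.

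Arrays that share a replicate number tended to deviate together, so the differences were also taken number by number. For Pdgfra they were -1.31, -0.68 and -1.29 for replicates 1, 2 and 3, and for Fgf7 -1.61, -0.68 and -1.32. Both genes thus had their smallest difference between the arrays numbered 2. Pdgfrb had -0.83, -1.05 and -1.67, and Fgfrl1 had -0.87, -1.39 and -1.73, in the same order of numbers. Fgfr1 had -1.01, -0.41 and -0.47. All 5 genes were lower on the HML2 array of each number. For Pdgfra, Fgf7, Fgfr1 and Fgfrl1 this had to follow, because their groups did not overlap, so it adds no support. Pdgfrb, whose groups overlapped, could have come out otherwise. Pdgfa had -0.063, 0.65 and 0.24.

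Most genes have several probe sets on the array, and the 10 genes had 22 together, of which 11 had a mean signal of at least 100. Of these 11, 5 were called lower and 0 higher, against 14.1% lower and 11.3% higher of 16412 probe sets tested in this way. Both probe sets of Fgfrl1 were called lower, at -1.33 and -1.14 (limma adjusted p = 0.0072 and 0.015). The dimmer Fgf7 probe set, just under the filter, had a difference of -1.11, and the dimmer Pdgfrb probe set -0.73. The other Pdgfra probe set that could be tested had signals of 84.6, 117 and 111 in HML2 and 122, 126 and 81.8 in parental cells and a difference of -0.049 (adjusted p = 0.88). With the mean of its probe sets in place of the brightest, Pdgfra had a difference of -0.57 and was still called (adjusted p = 0.021). The other Fgfr1 probe sets had -0.46 and -0.23 and were not called, and the mean over Fgfr1 probe sets was -0.44 (adjusted p = 0.091). The 2 Pdgfa probe sets had 0.28 and 0.047.

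**Figure D3:**
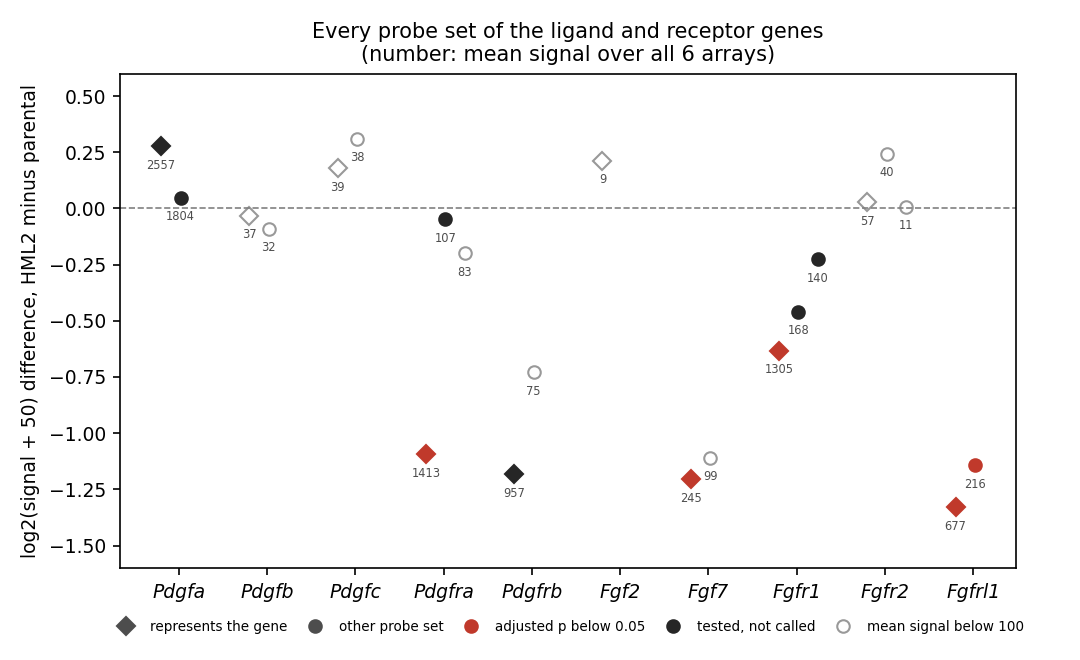
Log2(signal + 50) difference, HML2 minus parental, for all 22 probe sets of the 10 genes, each marked with its mean signal over the 6 arrays. Diamonds represent the gene, and red marks the 5 probe sets called lower. The dim Pdgfra probe sets lie near 0, apart from the bright one at -1.09.

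The tested genes whose pattern over the 6 arrays was nearest to that of Fgfrl1 were Prnp, Aebp1 and Lrrc8e. Likeness was the Euclidean distance between log2 values centred on the parental mean, which was 0.208, 0.264 and 0.311 in that order. Fgfrl1 was taken because its decrease was the largest on the log2(signal + 50) scale, although the ratio of mean signals was lower for Fgf7. Prnp, the prion protein gene, had signals of 5217, 2820.3 and 2356 in HML2 and 10037, 8210 and 8737 in parental replicates 1 to 3. Aebp1 had a difference of -1.43 and Lrrc8e, a subunit gene of a volume-regulated anion channel, of -1.22. These genes were chosen for their closeness to Fgfrl1 over the same arrays, so their lower HML2 signals were fixed by the choice. Lrrc8e averaged 77.6 in HML2 and 239 in parental cells and reached the mean of 100 only through the parental arrays.

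Pdgfa, Pdgfra and Fgfrl1 all lie on chromosome 5, where 621 genes were tested with a median difference of 0.07 and 11.1% were called lower. Of the 10 neighbours of Pdgfra, the nearest 5 tested genes on each side, 1 was called higher and 1 lower, with a median of 0.14. Around Fgfrl1, 1 neighbour was called higher and 0 lower (median -0.10). Around Pdgfa, 0 were called higher and 3 lower (median -0.41). The neighbours of Fgf7 on chromosome 2 had a median of -0.12, with 1 higher and 3 lower. Those of Fgfr1 on chromosome 8 had -0.28, with 1 higher and 2 lower, and those of Pdgfrb on chromosome 18 had 0.09, with 3 higher and 1 lower. The share of tested genes called lower was 14.5% on chromosome 2, 14% on chromosome 8 and 8.58% on chromosome 18. Over all genes tested, 12.3% were called higher.

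Further genes of the pathways were taken from 6 lists, with 87 tested genes in all, of which 12 were called higher and 20 lower, against 12.3% higher and 14.9% lower of all genes tested. Most genes in the list of other family members and co-receptors were dim: of 26 genes, 2 reached the filter, and 10 did not exceed the brightest bacterial control on any array. Fgfr3, another receptor kinase gene, averaged 338 ± 146 in HML2 and 279.6 ± 45.5 in parental cells (SD, n = 3 each; limma adjusted p = 0.64). The ligand gene Fgf4 averaged 98.2 ± 10.8 in HML2 and 105 ± 40.3 in parental cells (adjusted p = 0.92). Neither passed the test, and the sign of each turned under some alternatives.

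Among genes whose products process or bind the ligands, 6 of 10 were tested, with 0 higher and 2 lower, against 12.3% and 14.9% of all genes tested. Lrp1, which encodes an endocytic receptor that associates with PDGFRB, averaged 360 ± 95.01 in HML2 and 747 ± 148 in parental cells (SD, n = 3 each), a difference of -0.97 (limma adjusted p = 0.010). Pcsk7, a proprotein convertase gene, had -0.60 (adjusted p = 0.044), a call lost under 8 of 16 alternatives, among them those without any 1 HML2 array and without parental replicate 2 or 3. Plat, the tissue plasminogen activator gene whose product cleaves PDGF-C, averaged 934 ± 378 in HML2 and 1503 ± 79.4 in parental cells and missed the threshold (-0.72, adjusted p = 0.052). Plat was called lower with the replicate number as a block (adjusted p = 0.019), with array weights and without HML2 replicate 1 (-1.02, adjusted p = 2.7e-04).

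The heparan sulfate genes that passed the test were all lower in HML2 cells. Of 15 tested, 8 were called lower and 0 higher, where 14.9% of all tested genes were called lower, and their median was -0.61. Ext1, a polymerase that extends the chain, averaged 919 ± 111 in HML2 and 3285 ± 330 in parental cells (SD, n = 3 each), a difference of -1.78 (limma adjusted p = 1.0e-04). Hs6st1, which adds 6-O-sulfate groups, had -0.87 (adjusted p = 0.0085), and Glce, the epimerase gene, had -1.10 (adjusted p = 0.043) but lost its call under 7 of 16 alternatives, among them those without HML2 replicate 2 or 3 or any 1 parental array. Of the proteins that carry the chains, the syndecan gene Sdc2 averaged 1690 ± 40.3 in HML2 and 3369 ± 339 in parental cells, and the glypican gene Gpc1 had -0.82. Sdc4 (0.11) and Ext2 (-0.096), the partner subunit of Ext1, did not pass the test. Leaving out 1 array at a time left 5 to 9 heparan sulfate genes called lower, with 5 when parental replicate 1 or parental replicate 3 was left out.

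**Figure D4:**
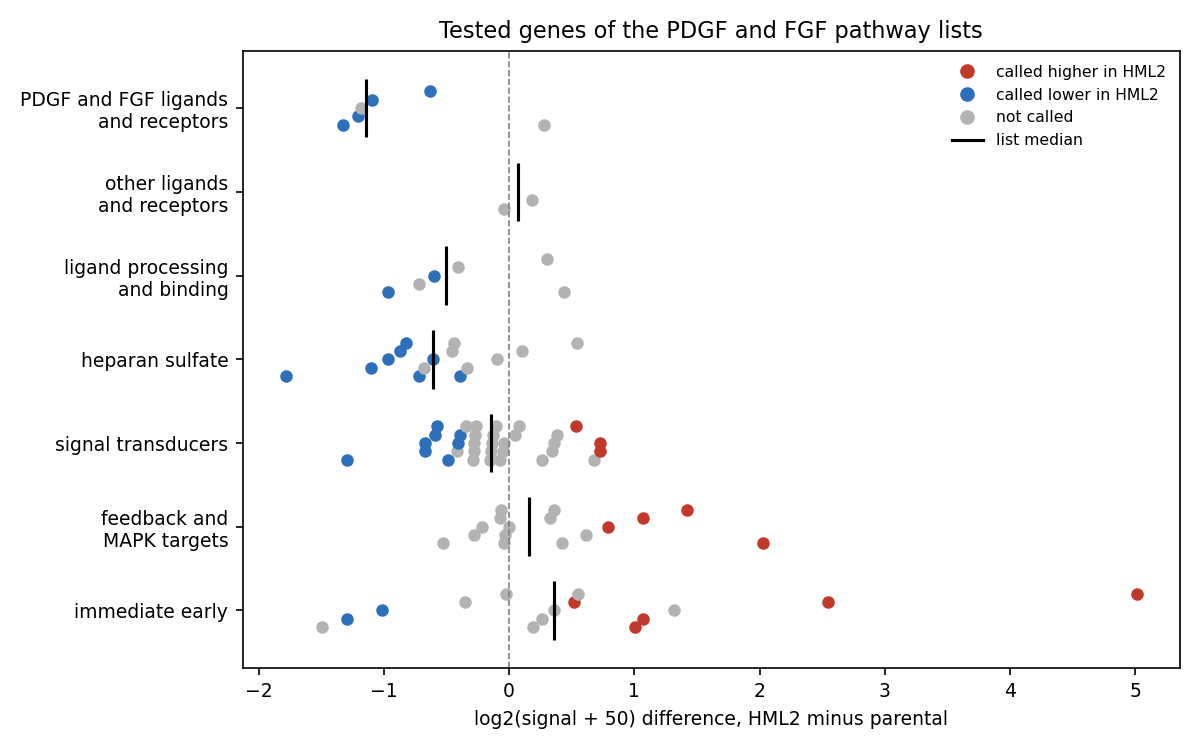
Log2(signal + 50) difference, HML2 minus parental, of every tested gene in the ligand and receptor set and in 6 pathway lists; red and blue points were called higher and lower, grey points were not called, and black bars are list medians. The heparan sulfate list lies mostly below 0 with a median of -0.61, and the called feedback genes all lie above 0.

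Most downstream signalling genes were not called. Of 33 transducer genes tested, 3 were called higher and 8 lower, against 12.3% higher and 14.9% lower of all genes, and 22 were not called, with a list median of -0.14. Prkca, a protein kinase C gene, had -1.30 (limma adjusted p = 9.2e-04), and the adaptor gene Crkl had -0.67. Nras, a RAS gene, averaged 3567 ± 411 in HML2 and 2137 ± 191 in parental cells (SD, n = 3 each; adjusted p = 0.0051). Grb2, the adaptor that links receptors to RAS, had 0.72 (adjusted p = 0.0037), but 0.18 (adjusted p = 0.29) with the mean of its probe sets. Prkca had -0.43 (adjusted p = 0.051) with that mean. The count of lower transducers was 2 without HML2 replicate 3, parental replicate 1 or parental replicate 3, 5 without HML2 replicate 2 or with the mean of all probe sets, and 13 with array weights. The higher count was 5 without HML2 replicate 1 and 7 with array weights.

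Feedback inhibitors and targets of FGF and MAPK signalling had 4 higher and 0 lower genes among 16 tested, against 12.3% higher and 14.9% lower of all genes tested. These were Ier3 (2.03), the phosphatase gene Dusp5 (1.42), the transcription factor gene Etv4 (1.07) and Flrt2 (0.79), a membrane protein gene of the FLRT family. Etv4 (168 ± 50.5 in HML2 and 53.6 ± 19.7 in parental cells) and Dusp5 (326 ± 114 in HML2 and 94.7 ± 61.7 in parental cells) reached the mean of 100 through the HML2 arrays, so their calls add no support to the count. The Etv4 difference was 1.68 with the mean of its probe sets or an offset of 100 and 0.78 with array weights. The representing probe set was chosen again at each offset, and at an offset of 100 it was another one for Etv4. Flrt2 lost its call without parental replicate 2 or 3 and Dusp5 without parental replicate 3, which left 2 called. Flrt2 was also not called without the signal filter (adjusted p = 0.052) or with the mean of its probe sets (0.60, adjusted p = 0.11). Several genes often used as readouts of FGF signalling were not called, namely Dusp6 (5053 ± 1718 in HML2 and 5327 ± 1822 in parental cells), Spry2 (-0.066), Spry4 (0.61) and Etv5 (-0.0028). Dusp6 had a limma adjusted p of 0.87. Spry4 (adjusted p = 0.13) was called higher with the replicate block (adjusted p = 0.0100) and with array weights (adjusted p = 0.024). Of the immediate early genes, 5 were higher and 2 lower among 15, against 12.3% and 14.9% of all genes, with the replicate number as a block 8 were higher and 3 lower, and with array weights 8 and 4. Among those called without the block, Fosl1 (1.07), Cxcl1 (5.02) and Ccl2 (2.55) were higher and Klf4 (-1.29) and Srf (-1.01) lower. Junb (1.00) and Odc1 (0.52) were also called higher with the settings of the report. With the same settings 8 genes were not called, among them Egr3, Jun, Myc, Ier2 and Nr4a1. Egr1, Egr2, Fos and Fosb were too dim to be tested. Ccl2 was not called without parental replicate 3 (2.36, adjusted p = 0.055), and the higher count was then 3. Srf was not called without parental replicate 2 (adjusted p = 0.052) or 3 (adjusted p = 0.066), which left 1 lower gene, and its difference was -0.49 with the mean of its probe sets.

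Because PDGF receptors are stromal markers, lists of cell type markers are set beside these results. The counts below stand against 12.3% called higher and 14.9% called lower of all genes tested. Of 10 fibroblast markers 2 were tested and both were lower, Col3a1 (602 ± 217 in HML2 and 22628 ± 2298 in parental cells) and Col6a3. Their part in the PDGF receptor result was not tested. The list's summed signal was 735 to 1193 in HML2 and 26309.6 to 32731.6 in parental cells, nearly all of it in parental cells from Col3a1 and Col6a3. Of the 8 untested fibroblast markers, Col1a1 (9.83 to 33.8 in HML2 and 65.1 to 78.4 in parental cells) and Dpt (11.2 to 35.9 in HML2 and 54.9 to 328 in parental cells) had every HML2 array below every parental array. Col1a2 had 52.9 to 82.1 in HML2 and 72.3 to 138 in parental cells, with overlap, and Dcn and Lum overlapped too. Fap and Thy1 did not exceed the brightest bacterial control on any array, and Pdpn had 90.7, 77.8 and 61.2 in HML2 and 46.2, 25.3 and 68.1 in parental cells, with overlap. Of 10 pericyte and smooth muscle markers 3 were tested and called lower, Acta2, Rgs5 and Mcam. Acta2 had signals of 257, 798 and 391.9 in HML2 and 8236, 20497 and 17109 in parental replicates 1 to 3. Rgs5 (41.1 ± 11.3 in HML2 and 306 ± 58.8 in parental cells) and Mcam (13.1 ± 2.04 in HML2 and 193 ± 86.6 in parental cells) reached the mean of 100 only through the parental arrays and so had to differ. The sum over all 10 markers was 518 to 1125 in HML2 and 8827 to 21303.5 in parental cells, nearly all of it in parental cells from Acta2, while Myh11, Tagln, Kcnj8 and Abcc9 did not exceed the brightest bacterial control. The untested Cspg4 (53.1 to 58.1 in HML2 and 12.0 to 60.5 in parental cells), Notch3 and Des overlapped between groups. For the labelled mammary tissue, 2 of 12 epithelial markers were tested. Krt8 was higher (4175 ± 649.8 in HML2 and 1095 ± 60.3 in parental cells) and Epcam was not called. Krt18 stayed under the filter, and Krt19, Cldn7 and Cdh1 stayed within 2.74 to 45.1. Every HML2 array lay above every parental array for Krt18 (59.7 to 100.5 in HML2 and 25.4 to 41.1 in parental cells). The same held for the untested Krt5 (53.9 to 61.2 in HML2 and 12.6 to 37.6 in parental cells). For the untested Trp63 every HML2 array lay below every parental array (4.94 to 16.5 in HML2 and 42.1 to 98.7 in parental cells). Epcam had a difference of -0.45 (limma adjusted p = 0.12), but -1.14 (adjusted p = 0.0044) with the mean of its probe sets, and it was also called lower with array weights (adjusted p = 0.022). It averaged 83.5 in HML2 and 133 in parental cells and passed the filter only through the parental arrays, which favours a lower call. The endothelial and lung epithelial lists had 0 of 1 tested gene called each. The lung epithelial gene, Sftpb, averaged 120.3 ± 32.5 in HML2 and 83.2 ± 6.71 in parental cells, a difference of 0.34 (adjusted p = 0.26). Of the untested lung genes, Cldn18 had 34.6 to 64.3 in HML2 and 21.4 to 33.2 in parental cells, near the background, and Sftpc overlapped between groups. The endothelial gene, Eng, had -0.35, but -0.64 and a call (adjusted p = 0.022) with the mean of its probe sets, and the untested Esam and Kdr overlapped between groups. The untested Cdh5 lay higher in HML2 without overlap (36.5 to 72.4 in HML2 and 8.91 to 32.1 in parental cells), near the background. Pecam1 lay lower in HML2 without overlap, but did not exceed the brightest bacterial control on any array. Of 2 leukocyte markers tested, Lyz2 was called lower, with 78.9 ± 8.29 in HML2 and 192 ± 28.9 in parental cells, having reached the mean of 100 only through the parental arrays. Csf1r (93.2 ± 41.2 in HML2 and 114 ± 23.1 in parental cells) and the untested Cd68 overlapped between groups.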

How the data were processed

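Labelled RNA (from 15 ug of total RNA, as the labels' protocols state) was hybridised to Affymetrix Mouse Genome 430 2.0 arrays, 1 per culture. The deposited values are linear intensity signals for each probe set, and MAS5 is the tool named in the submitters' processing notes, without a version. The signals had been scaled by the authors, which removes differences in total messenger RNA, and came without detection calls. From the deposited intensities, log2(signal + 50) was computed. Probe sets were kept if they had 1 symbol in the 2016 array annotation and averaged 100 or more, and the one with the highest mean represented each of 9361 genes. Symbols were updated through a RefSeq table (GRCm38.p6) that matched 34741 of 34945 probe sets. No build was named for the arrays.

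The test was limma 3.58.1 under R 4.3.3 (lmFit, eBayes with an intensity trend), unpaired, with Benjamini-Hochberg adjustment over all genes. On simulated data for this comparison with 200 of 9361 genes changed, 65% of changes of 1 log2 unit and 97% of 2 units were recovered, with 7 false calls. The simulated arrays had independent noise, and fewer genes were changed than were called in the data. These rates therefore need not hold for the real arrays. Same-numbered arrays had correlated deviations (0.45, 0.34 and 0.24 across genes, all above 0.1), though HML2 replicate 3 also reached 0.24 with parental replicate 2, so the number entered as a block in an alternative; the labels do not say what it stands for. No arrays held identical values.

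The genes and lists were chosen with earlier results of these data known. All 10 genes are named; from each pathway list up to 4 called genes of largest difference (at least 2 genes, if need be the brightest), and from each marker list the 3 brightest. Gpc1, Sdc4, Ext2, Plat, Dusp6, Spry2, Spry4, Etv5, Srf, Col1a1, Dpt, Dcn, Lum, Fap, Thy1, Pdpn, Myh11, Tagln, Kcnj8, Abcc9, Cspg4, Notch3, Des, Krt19, Cldn7, Cdh1, Krt5 and Trp63 were added after their values were seen. Cdh5, Pecam1, Egr1, Egr2, Egr3, Fos, Fosb, Jun, Junb, Myc, Ier2, Nr4a1 and Odc1 were also added after their values were seen. Genes without a single-symbol probe set were not analysed here.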

Additional observations from a re-analysis of the deposited data

How the results depend on the processing

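Pdgfra, Fgf7 and Fgfrl1 were called lower under all 16 alternatives, with differences of -1.28 to -0.57, -1.41 to -1.01 and -1.65 to -1.09. Pdgfa was not called under any of them. The number of the 10 genes called lower was 3 to 5 and called higher 0; Fgfr1 left and Pdgfrb joined the count. The replicate block gave 5 lower, with Pdgfrb added at an adjusted p of 0.0020, and changed no other call among these 10 genes; among feedback genes it gave 1 lower, against 0. With array weights, 2422 genes in all were higher and 2631 lower, against 1155 and 1395, and 22 higher and 31 lower in the pathway lists, against 12 and 20. Leaving out 1 array at a time gave 590 to 1577 higher and 795 to 1845 lower genes in all, and 7 to 14 higher and 9 to 23 lower in the pathway lists. The lowest of each came without parental replicate 3; without HML2 replicate 3 there were 715 higher genes and 11 lower pathway genes, and without parental replicate 1 there were 12 lower pathway genes. Among genes not called with the settings of the report, Fgfr3 turned to -0.23 with array weights and -0.11 without HML2 replicate 1 (up to 0.35 without another array). Fgf4 turned to 0.036 with quantile normalization, 0.0074 with median centring, 0.024 without HML2 replicate 3 and 0.17 without parental replicate 2 (down to -0.17 without another), and Csf1r to 0.031 without HML2 replicate 3 (down to -0.40 without another array). With array weights Csf1r was called lower at -0.67 (adjusted p = 0.017), but it passed the filter only through the parental arrays. Ext2, Dusp6, Spry2 and Etv5, also not called, changed sign under some alternatives, within -0.34 to 0.19. The cause was not tested. Signal near the background limits Pdgfb, Pdgfc, Fgf2 and Fgfr2.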
